A study of Mus musculus with 9 samples.

Results

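The 28 genes described here encode the enzymes that build cholesterol from acetyl-CoA, the transcription factor SREBP2 with the proteins that control its release, and 3 proteins that move sterols inside the cell. The list was drawn up by function with earlier results of these data known, and its members were found by gene symbol. Of the 28, 27 had a probe set annotated to that symbol alone, and all 27 passed the filter on dim probe sets. Over the whole array, 18193 genes had such a probe set and 12466 were tested. Acat2, the cytosolic thiolase that joins acetyl-CoA units at the start of the pathway, had no probe set annotated to it alone, so its expression was not analysed here.

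Expression was measured in the livers of 9 female Crlj:CD1(ICR) mice, an outbred stock, which were bought at an age of 9 weeks and quarantined for 1 week. The mice ate a powdered diet for 2 weeks, and 3 received no added compound (control), 3 received permethrin at 5000 ppm and 3 received clofibrate at 5000 ppm. Permethrin is an insecticide of the pyrethroid type. Clofibrate belongs to the fibrates, drugs that lower blood lipids and act on the nuclear receptor PPAR alpha. Each mouse was measured on its own Affymetrix array, at a single dose and time per compound, and the labels call the arrays of a group biological replicates. The descriptions of the treated samples speak of rats, whereas their organism and stock are given as mouse, and they were treated as mouse.

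The liver is a main site of cholesterol synthesis. Acetyl-CoA is turned into mevalonate, mevalonate into isoprenoid units, these into squalene, and squalene into lanosterol, which a last series of enzymes trims to cholesterol. SREBP2, encoded by Srebf2, is made as an inactive precursor in the membrane of the endoplasmic reticulum, where Insig proteins hold it together with its escort Scap while sterols are plentiful. When sterols fall, Scap carries the precursor to the Golgi, the proteases encoded by Mbtps1 and Mbtps2 release its active part, and this part enters the nucleus and turns on most genes of the pathway. Insig1, Stard4 and Srebf2 itself are also known targets of SREBP2.

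Values are MAS5 signals, a linear intensity per probe set. They can be compared between mice for a given gene but not between genes. Changes are differences of mean log2(signal + 3.35), given with their standard error and the adjusted p of limma's test, with n = 3 mice per group. The standard error uses a spread pooled over all 3 groups, not only over the groups compared. A gene was called when its adjusted p was under 0.05. Of the 8 hepatocyte markers, all but Ass1 were bright in every liver, among them Cps1 and Fgb. The Ass1 probe set was dim, at 21.3 to 71.2. Summed over all 8, the signal ranged from 62580 to 69560 among controls, from 53690 to 57130 among permethrin mice and from 42560 to 53010 among clofibrate mice. Of these 8 markers, limma called 5 lower with clofibrate, against 3.8% of all tested genes, and 0 with permethrin, against 0.85%. With permethrin, 4 of the markers had an unadjusted p under 0.05. The summed signal of 6 markers of sinusoidal endothelial cells was 1729 to 1949, 1587 to 1789 and 1335 to 1438 in the same order. The 6 stellate cell markers summed to 2734 to 3471, 2250 to 2532 and 2007 to 2744, and the 7 Kupffer cell markers to 2849 to 3329, 2409 to 5068 and 2634 to 3739, and pancreatic, bile duct and lymphocyte markers summed to at most 105 on any array. The probe set for the middle of 18S ribosomal RNA ranged from 122 to 194 among controls, from 33.4 to 95.1 among permethrin mice and from 47.1 to 68.6 among clofibrate mice. That for its 3′ end read 191 to 208, 47.6 to 131 and 87.7 to 126, and that for its 5′ end, where control and permethrin mice overlapped, 73.9 to 114, 33.2 to 76.4 and 39.7 to 73.4. The part of these marker and ribosomal RNA shifts in the results below was not tested. In whole liver, fewer cells of a type and less RNA per cell cannot be told apart. When arrays were scaled to the 18 probe sets of the added hybridization controls, the median change of all tested genes moved up by 0.32 log2 units in the clofibrate comparison and by 0.14 in that with permethrin.

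With clofibrate, 11 of the 27 measured genes rose and 0 fell, against 3.22% of all tested genes called higher, 3.8% called lower and 7.03% called in either direction. All 11 were enzymes, so 11 of 18 measured enzymes rose, from Pmvk in the mevalonate steps to Hsd17b7 in the steps after lanosterol. The other 9 genes, those of SREBP2 and its control and of sterol movement, gave 0 calls in limma, with an unadjusted p under 0.05 for 1 of them, Insig2. The median log2 change was 1.16 over the 18 enzymes and 0.44 over the 27 genes, against -0.04 over all tested genes. All 18 enzymes had a positive change, 17 of them without control mouse 1 or without clofibrate mouse 2, compared with 44.7% of all tested genes. Enzyme signals of the clofibrate mice lay above every control in 13 of 18 enzymes, against 11.6% of all tested genes. With permethrin, 0 of the 27 genes passed the threshold in either direction, against 1.28% of all tested genes higher, 0.85% lower and 2.13% in either direction. For the same 27 genes, limma's unadjusted p was under 0.05 for 8 with permethrin and for 16 with clofibrate. The share of all tested genes with such a p was not computed. Counts of unadjusted p, here and in other paragraphs, therefore have no background to be read against. Both comparisons use the same 3 controls.

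**Figure D1:**
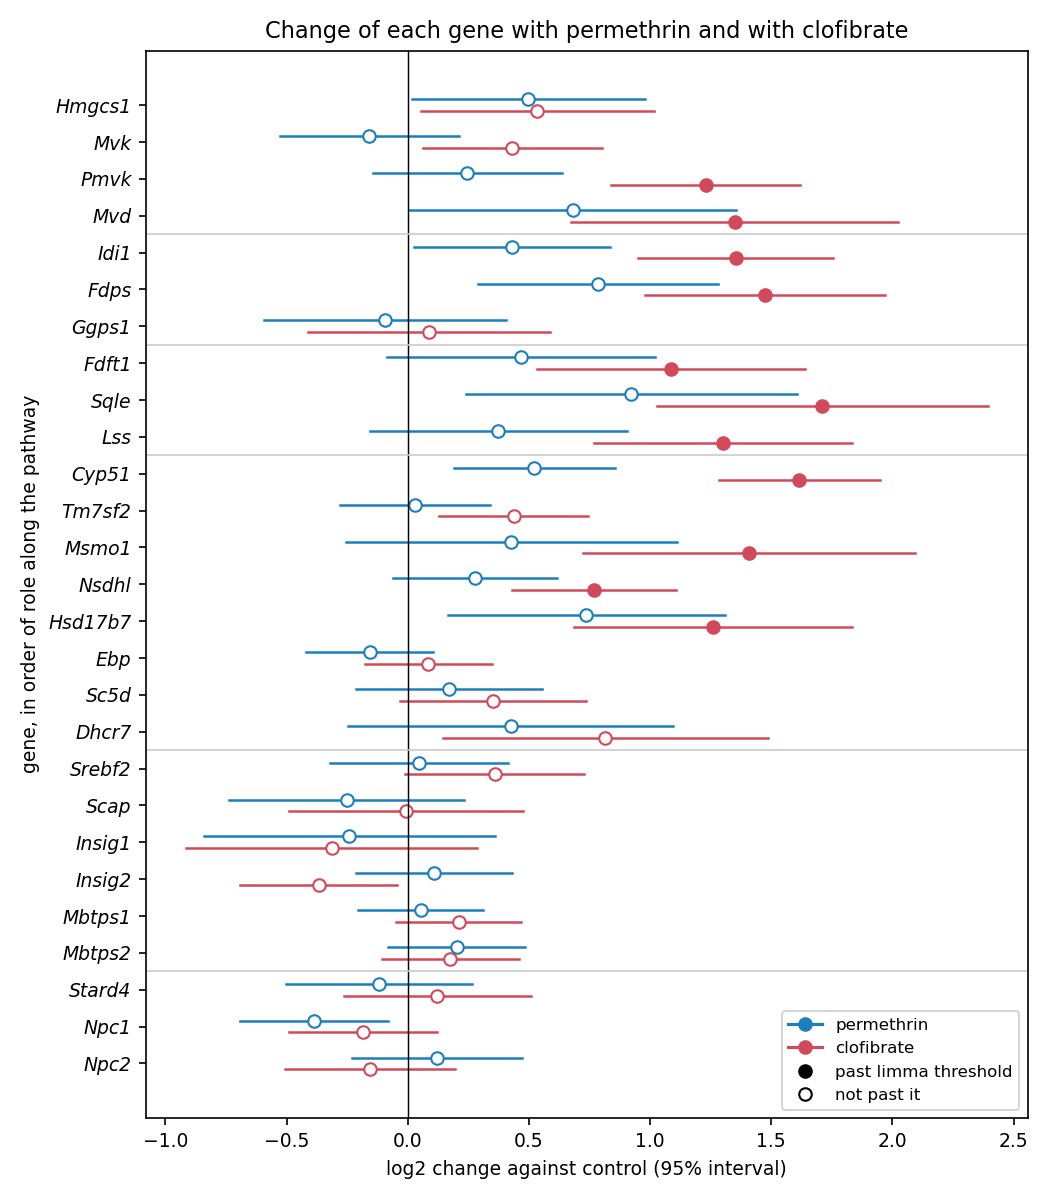
Change of each of the 27 measured genes against control on the log2 scale, with its 95% interval, for permethrin (blue) and clofibrate (red), ordered by role along the pathway; filled points are called by limma at an adjusted p under 0.05. The 11 filled points are all clofibrate changes of enzymes, between 0.77 for Nsdhl and 1.71 for Sqle, and the points of Insig1 and Insig2 lie below 0 for clofibrate.

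Promoters are shown because SREBP2 is known to act on this pathway from DNA close to the start of its genes, together with the general factors NF-Y, which binds CCAAT boxes, and Sp1, which binds GC-rich boxes. RefSeq windows on build GRCm38.p6 were used for 23 of the genes, 16 of them enzymes, and Acat2 was included here. The 250 bases before the annotated start were searched on both strands. No window was used for Fdps, Fdft1, Sqle, Stard4 or Npc1. The search of listed genes skipped a chromosome that the shares over all genes include. The CCAAT box was searched as the letters CCAAT, which read ATTGG when they lie on the opposite strand. The GC box was searched as GGGCGG. The sterol regulatory element was searched only as TCACNCCAC and in the narrower form given below. Other variants of it were not searched. CCAAT was found before 15 of the 16 enzymes and 19 of the 23 genes, compared with 37.5% of all 27025 genes with a window and 39.9% of the 10077 tested ones. GGGCGG was found before 14 of the 16 enzymes and 20 of the 23 genes, compared with 35.4% of all genes and 61.0% of tested ones. TCACNCCAC was found before Hmgcs1 alone among the 23, compared with 1.22% of all genes and 1.31% of tested ones. Its narrower form, TCACCCCAC with an A in front, was found before 0 of the 23 and 0.0814% of all genes. A match is a run of letters and not a measured binding site, and a window without a match is not shown to lack a site.

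The sequences below are the 250 bases before the start of 4 enzymes called with clofibrate, of Hmgcs1, chosen after its match was seen, and of the 2 Insig genes, which regulate the pathway. Each runs 5′ to 3′ on the strand of its gene and ends at the base before the start. Capitals mark CCAAT or ATTGG, and in Hmgcs1 also TCACCCCAC. For Pmvk and Insig2, which have several annotated starts, the window that holds a CCAAT match is shown.
Cyp51, chr5:4104698-4104947, minus strand: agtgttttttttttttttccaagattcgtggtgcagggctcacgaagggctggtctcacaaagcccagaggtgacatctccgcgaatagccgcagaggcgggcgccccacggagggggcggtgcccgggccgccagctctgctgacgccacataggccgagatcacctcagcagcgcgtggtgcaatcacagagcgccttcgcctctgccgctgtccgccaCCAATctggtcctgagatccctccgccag
Idi1, chr13:8885356-8885605, plus strand: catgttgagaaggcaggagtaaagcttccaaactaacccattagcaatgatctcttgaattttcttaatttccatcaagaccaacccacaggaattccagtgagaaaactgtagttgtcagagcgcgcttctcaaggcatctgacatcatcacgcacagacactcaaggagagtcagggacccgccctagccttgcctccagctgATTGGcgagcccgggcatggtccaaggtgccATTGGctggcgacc
Pmvk, chr3:89454291-89454540, plus strand: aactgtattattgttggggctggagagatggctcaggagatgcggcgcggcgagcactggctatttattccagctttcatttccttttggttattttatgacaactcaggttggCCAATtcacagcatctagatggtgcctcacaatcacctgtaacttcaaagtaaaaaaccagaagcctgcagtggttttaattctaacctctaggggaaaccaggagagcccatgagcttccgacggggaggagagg
Lss, chr10:76531355-76531604, plus strand: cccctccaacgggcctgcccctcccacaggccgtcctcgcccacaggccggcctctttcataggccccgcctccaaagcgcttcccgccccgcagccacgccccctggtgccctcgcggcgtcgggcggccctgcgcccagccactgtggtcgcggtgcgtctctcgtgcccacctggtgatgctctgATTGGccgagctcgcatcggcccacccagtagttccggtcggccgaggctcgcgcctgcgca
Hmgcs1, chr13:119690101-119690350, plus strand: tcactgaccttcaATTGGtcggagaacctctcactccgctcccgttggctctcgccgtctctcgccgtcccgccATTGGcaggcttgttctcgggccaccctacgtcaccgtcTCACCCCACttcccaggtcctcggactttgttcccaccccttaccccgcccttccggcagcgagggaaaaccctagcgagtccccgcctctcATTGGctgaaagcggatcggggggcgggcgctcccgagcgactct
Insig1, chr5:28071162-28071411, plus strand: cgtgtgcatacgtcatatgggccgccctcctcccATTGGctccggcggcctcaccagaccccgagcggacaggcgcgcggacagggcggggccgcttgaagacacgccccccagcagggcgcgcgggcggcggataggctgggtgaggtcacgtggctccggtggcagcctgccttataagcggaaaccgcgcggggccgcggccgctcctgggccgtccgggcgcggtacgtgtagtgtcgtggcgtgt
Insig2, chr1:121332590-121332839, minus strand: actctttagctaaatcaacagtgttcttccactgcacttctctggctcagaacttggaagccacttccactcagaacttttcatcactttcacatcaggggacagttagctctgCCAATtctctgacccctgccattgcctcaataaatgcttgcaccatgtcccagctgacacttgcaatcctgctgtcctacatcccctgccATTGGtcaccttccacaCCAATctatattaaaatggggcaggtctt

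In these windows Cyp51 and Lss each held 1 CCAAT match, Idi1 held 2, and Hmgcs1 held 3 beside its TCACCCCAC. The CCAAT match of Cyp51 began 29 bases before the start and that of Lss 62 bases before it. Insig1 held 1 CCAAT match and 3 GGGCGG matches, and Insig2 held 3 CCAAT matches.

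Of the early enzymes that make and activate mevalonate, Pmvk and Mvd rose with clofibrate. Pmvk, phosphomevalonate kinase, had signals of 328, 324 and 303 in the control mice, 372, 367 and 393 with permethrin, and 578, 1035 and 704 with clofibrate. Every clofibrate mouse lay above every other mouse, and every permethrin mouse lay above every control. The clofibrate change was 1.23 ± 0.18 (2.34-fold, limma adjusted p = 0.00216), and that with permethrin, 0.24 ± 0.18, did not pass (adjusted p = 0.596). Mvd, the decarboxylase that makes isopentenyl diphosphate, had signals of 106, 106 and 57.0 in controls, 135, 119 and 173 with permethrin, and 151, 352 and 214 with clofibrate. It rose 2.55-fold with clofibrate (log2 1.35 ± 0.31, limma adjusted p = 0.0262). The permethrin mice also lay above all controls for Mvd, with a change of 0.68 ± 0.31 that did not pass (adjusted p = 0.360). Mvk, mevalonate kinase, had signals of 161, 152 and 126 in controls, 161, 106 and 129 with permethrin, and 183, 213 and 198 with clofibrate. All clofibrate mice lay above all others for Mvk, but the change of 0.43 ± 0.17 did not pass (limma adjusted p = 0.180).

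Hmgcs1, the cytosolic synthase that makes HMG-CoA, had signals of 5703, 5543 and 3066 in controls, 6105, 6553 and 6825 with permethrin, and 5193, 7881 and 7198 with clofibrate on its brightest probe set. The clofibrate group overlapped with the controls because clofibrate mouse 1 lay below control mice 1 and 2. Its change was 0.53 ± 0.22 with clofibrate (limma adjusted p = 0.207) and 0.50 ± 0.22 with permethrin (adjusted p = 0.345). The 3 other probe sets of Hmgcs1 above the filter gave clofibrate changes of 0.73, 0.80 and 1.81, with limma adjusted p of 0.0452, 0.0474 and 0.00330. On the probe set with the change of 1.81, signals were 1094, 1074 and 633 in controls, 1696, 1260 and 1702 with permethrin, and 2011, 4350 and 3708 with clofibrate. There the 3 groups did not overlap and stood in the order control, permethrin, clofibrate, although permethrin against control did not pass (0.76, adjusted p = 0.247). The probe sets of Hmgcs1 thus disagreed on the call for clofibrate, with all 4 changes positive. Mvk likewise had a dimmer probe set with a clofibrate change of 0.73 (limma adjusted p = 0.0487).

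**Figure D2:**
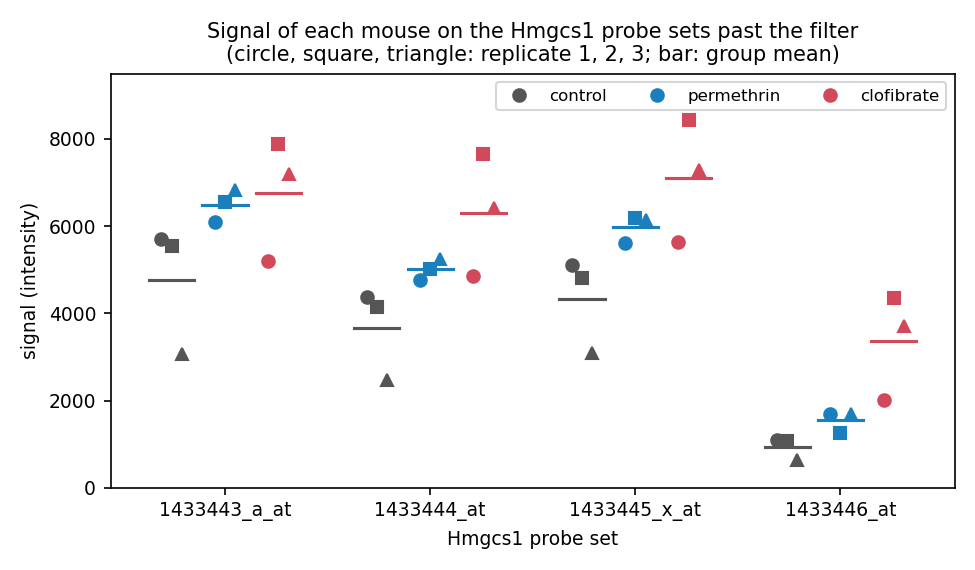
Signal (intensity, linear axis from 0) of each mouse on the 4 Hmgcs1 probe sets above the filter; marker shapes are replicates 1, 2 and 3, and bars are group means. On the dimmest probe set (far right) the clofibrate mice, at 2011 to 4350, lie above all others, while on the set at the far left, which represented the gene, clofibrate mouse 1, at 5193, lies below control mice 1 and 2.

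Both enzymes that make the isoprenoid chain used for sterols rose with clofibrate. Idi1, the isomerase of isopentenyl diphosphate, had signals of 1829, 1433 and 983 in controls, 1764, 1898 and 1887 with permethrin, and 3232, 3969 and 3366 with clofibrate. The clofibrate mice were all brighter than the brightest of the other 6, whereas permethrin and control mice overlapped. The rise was 2.56-fold (log2 1.35 ± 0.18, limma adjusted p = 0.00143). Fdps, farnesyl diphosphate synthase, had signals of 1191, 1079 and 766 in controls, 1842, 1627 and 1686 with permethrin, and 2025, 4036 and 2590 with clofibrate. The groups did not overlap and stood in the order control, permethrin, clofibrate. Fdps rose 2.77-fold with clofibrate (log2 1.47 ± 0.23, limma adjusted p = 0.00318), and with permethrin its change of 0.78 ± 0.23 did not pass (adjusted p = 0.130). In limma fits with only the 6 control and permethrin arrays, or without clofibrate mouse 2, the permethrin change of Fdps was called, with adjusted p of 0.0453 and 0.0439. Ggps1, which makes geranylgeranyl diphosphate for protein prenylation at a branch away from cholesterol, had signals between 27.0 and 46.1 in all 9 mice. Its groups overlapped, with a clofibrate change of 0.09 and a 95% interval from -0.41 to 0.59.

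All 3 enzymes from farnesyl diphosphate to lanosterol rose with clofibrate. Fdft1, squalene synthase, had signals of 1234, 1326 and 821 in controls, 1424, 1630 and 1531 with permethrin, and 1551, 3433 and 2437 with clofibrate. It rose 2.13-fold with clofibrate (log2 1.09 ± 0.25, limma adjusted p = 0.0286), although clofibrate mouse 1 lay within the range of the permethrin mice. Sqle, squalene epoxidase, a step known to limit the pathway's rate, had signals of 298, 317 and 155 in controls, 397, 460 and 559 with permethrin, and 504, 1107 and 948 with clofibrate. Its rise with clofibrate, 3.27-fold (log2 1.71 ± 0.31, limma adjusted p = 0.00838), was the largest of the 27 genes. With permethrin every mouse lay above every control for Sqle, and the change of 0.92 ± 0.31 did not pass (adjusted p = 0.203). Lss, lanosterol synthase, had signals of 318, 269 and 241 in controls, 350, 349 and 370 with permethrin, and 426, 977 and 755 with clofibrate. Its groups did not overlap, and the clofibrate rise was 2.46-fold (log2 1.30 ± 0.24, limma adjusted p = 0.00947).

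The 8 enzymes after lanosterol were split, with 4 called higher with clofibrate and 4 not called. Cyp51, the lanosterol demethylase, had signals of 488, 431 and 502 in controls, 742, 654 and 649 with permethrin, and 1147, 1768 and 1519 with clofibrate. No group overlapped another, and the rise with clofibrate was 3.06-fold (log2 1.62 ± 0.15), with the smallest adjusted p of the 27 genes (limma, 0.000158). Permethrin gave 0.52 ± 0.15 for Cyp51, which did not pass in limma (adjusted p = 0.131), but was called without clofibrate mouse 1 (adjusted p = 0.0482). On the second brightest Cyp51 probe set, clofibrate mouse 1, at 183, lay among the controls at 172 to 220, and the clofibrate change of 1.36 was not called (limma adjusted p = 0.126).

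Msmo1, Nsdhl and Hsd17b7, which act together to remove methyl groups from the sterol ring, all rose with clofibrate. Msmo1, the methylsterol monooxygenase, had signals of 1289, 1189 and 671 in controls, 1641, 1298 and 1178 with permethrin, and 1673, 4195 and 2757 with clofibrate, a 2.65-fold rise (log2 1.41 ± 0.31, limma adjusted p = 0.0230). Nsdhl, the sterol dehydrogenase, had 1252, 1040 and 815 in controls, 1248, 1292 and 1171 with permethrin, and 1606, 2037 and 1608 with clofibrate, a 1.70-fold rise (0.77 ± 0.15, limma adjusted p = 0.0144). Hsd17b7, the ketosteroid reductase of this complex, had 429, 416 and 268 in controls, 539, 667 and 622 with permethrin, and 549, 1111 and 1091 with clofibrate, a 2.39-fold rise (1.26 ± 0.26, limma adjusted p = 0.0170). The clofibrate mice lay above all controls for each of the 3 genes, and for Hsd17b7 the permethrin mice did so too.

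**Figure D3:**
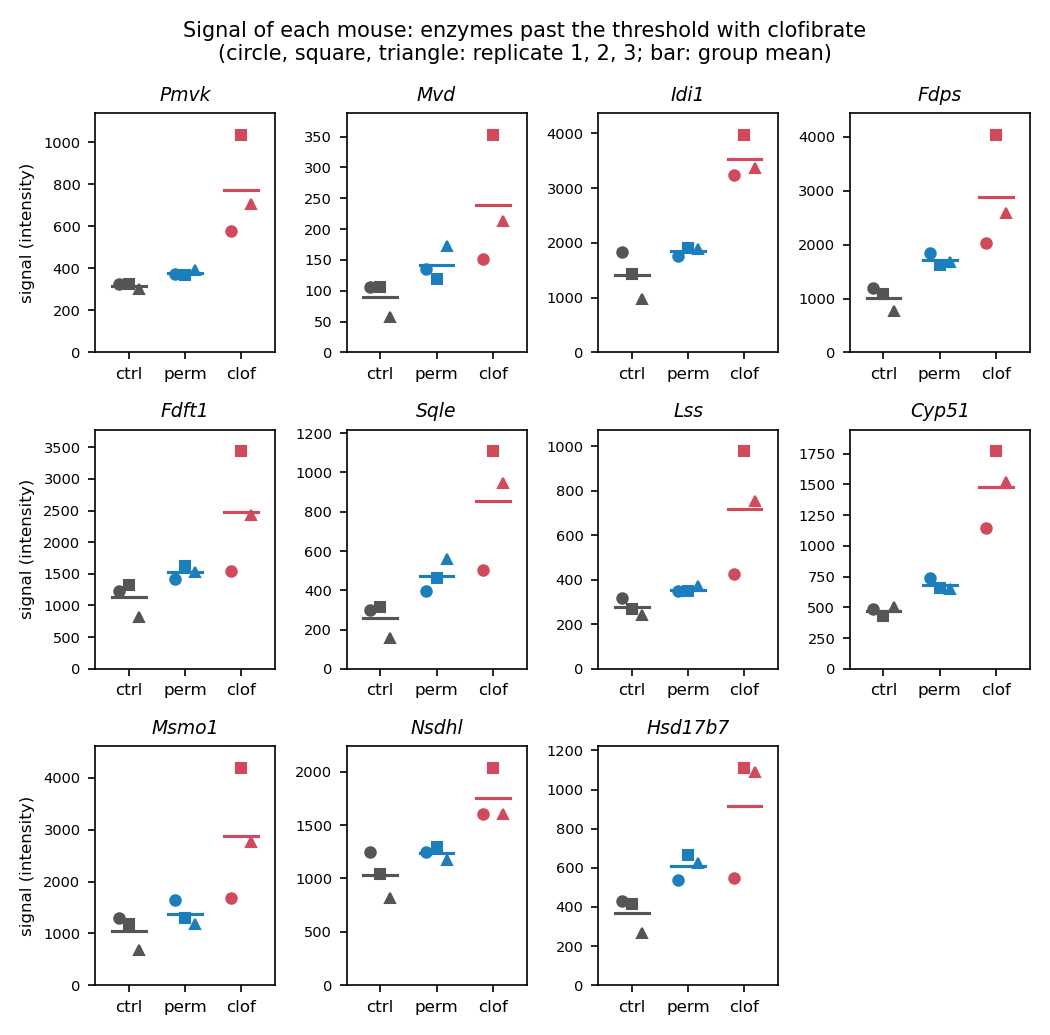
Signal (intensity, linear axes from 0) of each mouse for the 11 enzymes called higher with clofibrate; points are mice, bars are group means, and the groups are control (ctrl), permethrin (perm) and clofibrate (clof). In all 11 panels the clofibrate mice lie above the controls, and in all 11 clofibrate mouse 1 is the lowest of its group, as for Fdps at 2025 against 4036 and 2590.

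The 4 remaining enzymes after lanosterol were not called. Tm7sf2, a sterol reductase, had signals of 1567, 1674 and 1547 in controls and 1941, 2514 and 2069 with clofibrate, without overlap, and its change of 0.44 ± 0.14 did not pass (limma adjusted p = 0.106). Dhcr7, the reductase that completes cholesterol, had 935, 865 and 671 in controls, 874, 1710 and 881 with permethrin, and 917, 2075 and 1558 with clofibrate. For Dhcr7, clofibrate mouse 1 lay within the controls and permethrin mouse 2 stood far above the other permethrin mice, and the clofibrate change of 0.81 ± 0.31 did not pass (limma adjusted p = 0.166). Without clofibrate mouse 1 the Dhcr7 change was 1.14 and was called (limma adjusted p = 0.0424). Ebp, a sterol isomerase, had a clofibrate change of 0.09 with a 95% interval from -0.18 to 0.35. Sc5d, a sterol desaturase, had a clofibrate change of 0.35 (limma adjusted p = 0.309), and its groups overlapped.

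None of the 6 genes for SREBP2 and its control was called with either compound. Srebf2 had signals of 94.7, 110 and 113 in controls, 116, 103 and 109 with permethrin, and 150, 106 and 159 with clofibrate. Clofibrate mice 1 and 3 were the brightest of all 9 for Srebf2 while clofibrate mouse 2 lay within the controls, and the change of 0.36 ± 0.17 did not pass (limma adjusted p = 0.276). On the other Srebf2 probe set, all clofibrate mice, at 102, 116 and 115, lay above all control and permethrin mice. The clofibrate change there, 0.35, did not pass either (limma adjusted p = 0.257). Insig1, which retains the precursor in the endoplasmic reticulum, had signals of 1954, 1231 and 877 in controls, 1311, 777 and 1253 with permethrin, and 1249, 906 and 968 with clofibrate. The 3 groups overlapped, and control mouse 1 was the brightest of all 9. Its change was -0.31 ± 0.27 with clofibrate (limma adjusted p = 0.602), with a 95% interval from -0.91 to 0.29, and -0.24 ± 0.27 with permethrin (adjusted p = 0.758).

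Insig2, the related retention protein, had signals of 3084, 2946 and 3156 in controls, 3324, 3329 and 3247 with permethrin, and 2545, 1796 and 2918 with clofibrate. The clofibrate mice lay below all controls for Insig2, the only 1 of the 27 genes to do so, against 15.6% of all tested genes. The permethrin mice lay above all controls, and neither change passed, at -0.37 ± 0.15 with clofibrate (limma adjusted p = 0.196) and 0.11 ± 0.15 with permethrin (adjusted p = 0.805). The other Insig2 probe sets gave clofibrate changes of -0.41 and -0.61 that did not pass either (limma adjusted p = 0.239 and 0.0619). On both, the clofibrate mice again lay below all controls, while permethrin and control mice overlapped. Scap, the escort, had signals of 1083, 975 and 990 in controls, 798, 878 and 882 with permethrin, and 663, 1474 and 1053 with clofibrate. The clofibrate mice for Scap spread on both sides of the controls, with a change of -0.01 and a 95% interval of -0.49 to 0.48. Mbtps1, the protease of the initial cut, had 388, 423 and 397 with clofibrate against 343, 331 and 369 in controls, and its change of 0.21 ± 0.12 did not pass (limma adjusted p = 0.375). Mbtps2, the protease of the final cut, had overlapping groups in both comparisons, with changes of 0.18 with clofibrate and 0.20 with permethrin.

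**Figure D4:**
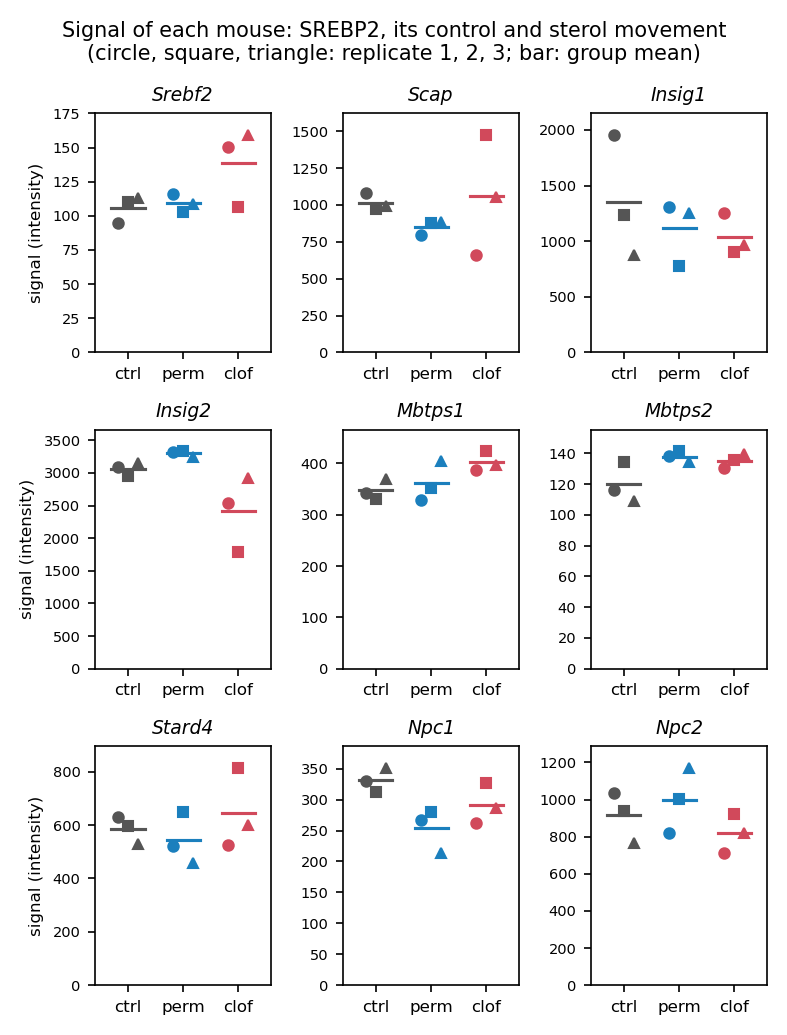
Signal (intensity, linear axes from 0) of each mouse for the 6 genes of SREBP2 and its control and the 3 genes of sterol movement; points are mice, bars are group means, and the groups are control (ctrl), permethrin (perm) and clofibrate (clof). The groups overlap in most panels, and the clofibrate mice lie below all controls only for Insig2, at 1796 to 2918 against 2946 to 3156.

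The 3 genes of sterol movement were not called either. Stard4, a cytosolic sterol carrier, had signals of 629, 597 and 528 in controls, 522, 649 and 457 with permethrin, and 525, 815 and 600 with clofibrate. Its groups overlapped, and its clofibrate change of 0.12 had a 95% interval from -0.26 to 0.51. Npc1, the membrane protein that exports cholesterol from lysosomes, had 329, 312 and 351 in controls, 267, 279 and 214 with permethrin, and 262, 327 and 287 with clofibrate. All permethrin mice lay below all controls for Npc1, and the change of -0.39 ± 0.14 did not pass (limma adjusted p = 0.235). Npc2, its soluble partner, had overlapping groups, with changes of -0.16 with clofibrate and 0.12 with permethrin.

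With permethrin the enzymes stood apart from the controls more often than they were called. Permethrin mice lay above every control for 10 of the 27 genes, 9 of them enzymes, against 9.53% of all tested genes, and below every control for 3 genes, against 13.2%. The 3 genes were Ebp, Scap and Npc1. The median log2 change with permethrin was 0.43 over the 18 enzymes and 0.20 over the 27 genes, against -0.04 over all tested genes, and 15 of 18 enzymes had a positive change, against 43.7% of all tested genes. Without control mouse 3 these medians with permethrin were 0.21 and 0.13. The median over the 27 genes was 0.35 after scaling to the hybridization controls and 0.31 with each array centred on its median, where the median of all tested genes moved up too, by 0.14 and 0.11. The smallest limma adjusted p with permethrin was 0.130, for Fdps.

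Permethrin and clofibrate mice, fed the same dietary concentration of different compounds, were compared directly. All 18 enzymes had a lower mean log2 signal with permethrin than with clofibrate, while 49.3% of all tested genes had a higher one. With the second brightest probe sets 2 enzymes were higher with permethrin, and 1 was without permethrin mouse 1, clofibrate mouse 2 or clofibrate mouse 3. Of the 18, 2 were called, Cyp51 and Pmvk, against 0.265% of all tested genes called lower, 0.473% higher and 0.738% in either direction. Cyp51 was 2.13-fold lower with permethrin (log2 -1.09 ± 0.15, limma adjusted p = 0.00994), and Pmvk was 1.98-fold lower (-0.98 ± 0.18, adjusted p = 0.0347). Idi1 was 1.90-fold lower and just missed the threshold (-0.92 ± 0.18, limma adjusted p = 0.0554). Permethrin mice lay below every clofibrate mouse for 8 of the 27 genes, all enzymes, against 9.02% of all tested genes, and above every clofibrate mouse for 1, Insig2, against 9.08%. For Hmgcs1 the difference was -0.04 on the brightest probe set, with a 95% interval from -0.52 to 0.44, and -0.31, -0.23 and -1.05 on the 3 others, none called by limma (adjusted p = 0.607, 0.670 and 0.143). On the probe set at -1.05 the permethrin mice lay below all clofibrate mice. For Insig1 the difference was 0.07, with an interval from -0.53 to 0.67. The call of Pmvk was lost in 12 of 24 other settings and that of Cyp51 in 5.

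Within the control and clofibrate groups, though not with permethrin, the same mice were low or high for most enzymes. Control mouse 3 was the lowest control for 15 of 18 enzymes, compared with 37.8% of all tested genes, and control mouse 1 the highest for 12, compared with 37.8%. Clofibrate mouse 1 was the lowest of its group for 17 of 18 enzymes, compared with 36.7% of all tested genes, and clofibrate mouse 2 the highest for 17, compared with 35.6%. Relative to the control mean, the median enzyme stood at 0.21, 0.08 and -0.33 log2 units in control mice 1 to 3, at 0.36, 0.40 and 0.37 with permethrin, and at 0.61, 1.57 and 1.14 with clofibrate. In the permethrin group, mice 1 to 3 were the lowest for 6, 7 and 5 enzymes and the highest for 7, 6 and 5. The medians of the permethrin mice were thus close together, while the clofibrate mice spread over almost 1 log2 unit. The hepatocyte marker sum was also lowest in clofibrate mouse 1, at 42560 against 53010 and 50690, and highest in control mouse 3, at 69560 against 66440 and 62580, and its part in this order was not tested.

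**Figure D5:**
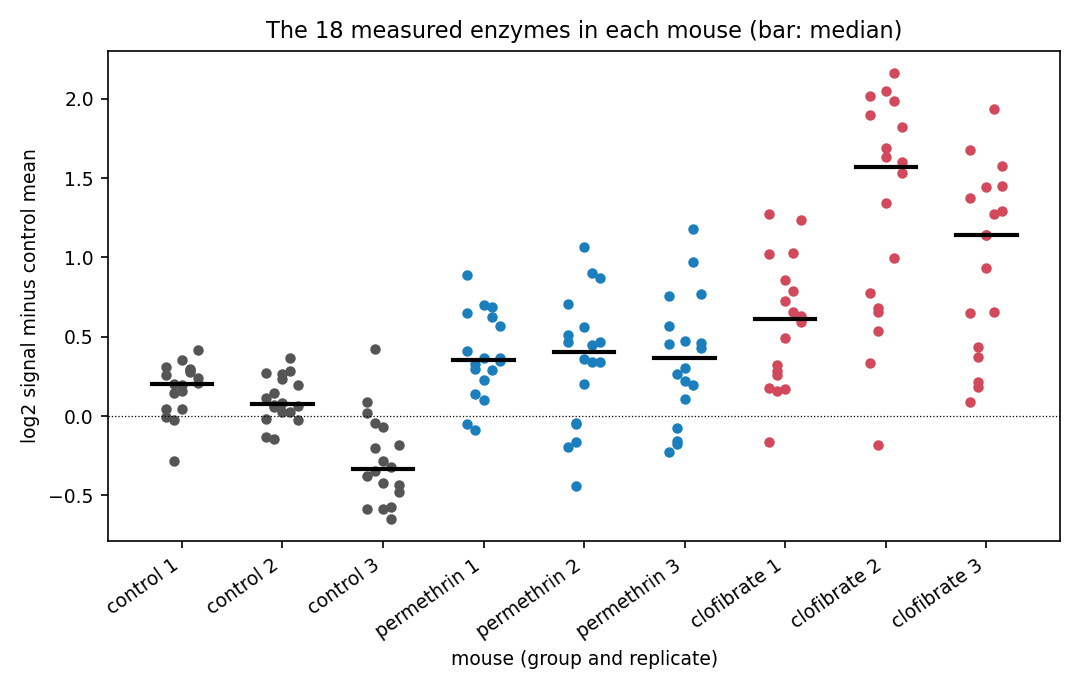
Log2 signal minus the control mean for each of the 18 measured enzymes (points) in each of the 9 mice, with the median per mouse as a bar. The medians are 0.61, 1.57 and 1.14 in the clofibrate mice, 0.36 to 0.40 in the permethrin mice, and -0.33 in control mouse 3, the lowest of all.

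The count of 11 genes called with clofibrate depended on single mice. Without control mouse 3, clofibrate mouse 2 or clofibrate mouse 3, limma called 7 of the 27 genes in each case, and Mvd, Fdft1, Msmo1 and Hsd17b7 were lost each time. Without clofibrate mouse 1, 12 genes were called. The calls of Pmvk, Idi1, Fdps and Sqle were kept in all 24 settings tried, and Cyp51 was lost only on its second brightest probe set. Nsdhl was lost only in limma without an intensity trend, where 6 of the 27 genes were called, and Lss was lost in the 2 settings that used other probe sets. Mvd was also lost on its second brightest probe set (limma adjusted p = 0.0551). Pmvk, Fdps, Sqle, Msmo1 and Nsdhl had no other probe set above the filter. The 2 settings with other probe sets thus could not try these calls on another probe set.

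Genes next to the pathway were read from 7 further lists, chosen with earlier results in view. Of 75 tested genes, 13 rose with clofibrate and 4 with permethrin, and limma called 0 lower with either. The shares over all tested genes were 3.22% higher with clofibrate and 1.28% with permethrin, and the counts by list below stand against the same shares. The list on acetyl-CoA supply, whose products do not all act in the cytosol, gave 2 of 5 genes higher with clofibrate. Acss2, which makes acetyl-CoA from acetate, rose 1.84-fold (limma adjusted p = 0.0347), with signals of 2631, 2100 and 1402 in controls and 3150, 4156 and 3678 with clofibrate. Crat, carnitine acetyltransferase, rose 6.36-fold with clofibrate and 3.24-fold with permethrin (limma adjusted p = 1.54e-06 and 0.000108), with signals of 136, 122 and 152 in controls, 439, 410 and 501 with permethrin, and 767, 920 and 983 with clofibrate. No Crat signal of any group overlapped with another group. The mitochondrial thiolase and ketone counterparts gave 0 of 3 limma calls with either compound, with an unadjusted p under 0.05 for 2 with clofibrate and 0 with permethrin. The isoprenoid side branches, which lead to ubiquinone, dolichol and prenylated proteins, gave 0 of 15 limma calls with either compound, with an unadjusted p under 0.05 for 4 with clofibrate and 2 with permethrin.

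The list of fatty acid targets of SREBP gave 6 of 15 genes higher with clofibrate and 1 with permethrin. The 4 with the largest clofibrate changes were Me1, Scd2, Fasn and Fads2. Me1, malic enzyme, a source of NADPH, rose 3.52-fold with clofibrate and 3.14-fold with permethrin (limma adjusted p = 0.000158 and 0.000611). Scd2, a stearoyl-CoA desaturase, rose 3.12-fold, Fasn, fatty acid synthase, rose 2.72-fold, and Fads2, a fatty acid desaturase, rose 1.96-fold with clofibrate (limma adjusted p = 0.0123, 0.0441 and 0.0367). Fasn signals were 1173, 1508 and 599 in controls, 1978, 2289 and 3202 with permethrin, and 1667, 4361 and 2949 with clofibrate. Control mouse 3 was thus the lowest control for Fasn as for most cholesterol enzymes, and the permethrin change of 1.26 did not pass (limma adjusted p = 0.137).

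Sterol storage and efflux gave 2 of 9 genes higher with clofibrate and 1 with permethrin. Nceh1, a cholesteryl ester hydrolase, rose 2.69-fold with clofibrate and 1.77-fold with permethrin (limma adjusted p = 0.000118 and 0.00855). Lpcat3, a phospholipid acyltransferase known as a target of the sterol receptor LXR, rose 2.13-fold with clofibrate (limma adjusted p = 0.0146). Of 17 sterol carriers and sensors, 1 was called against control, Osbpl3, an oxysterol-binding protein relative. It rose 3.56-fold with permethrin and 2.19-fold with clofibrate (limma adjusted p = 0.00277 and 0.0173), with signals of 17.3, 14.0 and 14.7 in controls, 76.5, 48.7 and 66.4 with permethrin, and 39.4, 46.9 and 28.4 with clofibrate. Only control mouse 1 lay above the filter signal of 15.6, so Osbpl3 was tested because of its signals in the treated mice. Its folds rest on control signals near that filter. Osbpl3 had the higher mean with permethrin, but that difference did not pass (log2 0.70, limma adjusted p = 0.259). Erg28, a scaffold of the sterol demethylation complex, was called only between the compounds, 2.02-fold lower with permethrin than with clofibrate (limma adjusted p = 0.0338). It was the only 1 of the 17 called between the compounds, against 0.265% of all tested genes called lower. Of 11 genes for degradation of pathway enzymes in the endoplasmic reticulum, 2 rose with clofibrate, Usp20, a deubiquitinase, by 1.81-fold and Nploc4, a cofactor that extracts ubiquitinated proteins, by 1.63-fold (limma adjusted p = 0.00700 and 0.0248).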

How the data were processed

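Liver RNA of 9 mice was measured on 9 Affymetrix arrays. The authors deposited linear MAS5 signals, an intensity per probe set, per the submitters' processing notes. The trimmed mean of every array was near 100, so arrays share a scale. Neither the MAS5 settings nor scan batches are given in the labels used. Of 45101 rows, 64 were array controls, 34945 had 1 gene symbol, 932 several and 9160 none in the annotation table used. Symbols were updated through gene identifiers for 34741 probe sets. A gene was represented by its probe set with the highest mean signal.

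Signals were raised by 3.35 (percentile 20 of the table) and log2 was taken. Probe sets above 15.6, the median signal, in at least 3 arrays were tested (24546). One model with a mean per group was fitted to all 9 arrays in limma 3.58.1 (R 4.3.3) with an intensity trend, with two-sided tests and Benjamini-Hochberg adjustment over all tested probe sets in each of 3 comparisons. The fitting script was tested on simulated data. The p-values rest on a spread between mice that was pooled over all 3 groups and moderated across probe sets. The number of arrays limits precision.

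All 28 genes are named. Of each further list, up to 4 called genes with the largest change against control are named. Erg28, which was called only between the compounds, is named as well. Members and lists were chosen with earlier results of these data known. Deviations of arrays with the same replicate number correlated between -0.109 and 0.113, so the numbers were not taken to pair mice. Alternatives covered offset, normalization, filter, variance model, arrays in the fit, probe set choice, a replicate block and leaving out each array. Promoters came from RefSeq (GRCm38.p6). Some genes of the pathway are not reported here.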

Additional observations from a re-analysis of the deposited data

Results flagged for a closer look

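Probe sets that did not represent their gene gave signals that the comparisons above did not use. For Hmgcs1 with clofibrate against control, the log2 change was 0.80, 0.73 and 1.81 on 3 such probe sets, with mean control signals of 3668, 4339 and 933. Each was called by limma, while the brightest probe set, at 0.53, was not. For Mvk the change was 0.73 on a dimmer probe set with a mean control signal of 47.6, also called by limma.

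The effects of permethrin and clofibrate against the same controls differed by test for 2 genes, Pmvk by -0.98 and Cyp51 by -1.09 log2 units (permethrin minus clofibrate). No cause was tested for any of these differences.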

How the results depend on the processing

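Across 24 alternative settings, 1880 of 1944 gene values kept their side of the threshold, 41 lost a call, 23 gained one, and 0 called values changed sign. Of the 1880, 40 changed sign, all of them uncalled. With clofibrate, the 11 genes called higher became 6 without an intensity trend, 12 with array weights or the mean of all probe sets, 14 after scaling to the hybridization controls, and 7 to 12 when single arrays were left out. The median change of the 27 genes with clofibrate, 0.44, became 0.77 after scaling to the hybridization controls and 0.73 with the second brightest probe sets. With permethrin, 1 gene was called with only the 6 arrays compared, and 0 to 1 when single arrays were left out. Between the compounds, the 2 genes called lower became 0 with each array centred on its median or without an intensity trend, 1 with the mean of all probe sets or the second brightest, 4 with array weights, and 0 to 3 when single arrays were left out. The median between the compounds, -0.39, became -0.58 after scaling to the hybridization controls. With the replicate number as a block, which the labels do not say pairs mice, 11 genes were higher with clofibrate, 0 with permethrin, and 1 was lower with permethrin than with clofibrate. The cause of these shifts was not tested.

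With 3 mice per group, intervals of single genes are wide, and a gene without a call is not shown to be unchanged. Each compound was given at a single dose and time in an outbred stock, and mRNA signals give no sterol level, protein amount or SREBP2 cleavage.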
